A study of Mus musculus with 6 samples.

Results

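The genes described here are 44 genes of cell division, which encode mitotic kinases, cyclins, kinesins, kinetochore proteins and the machinery of cytokinesis. They were taken by name out of 30735 gene symbols that had a probe set of their own on the arrays. Of the 44 genes, 43 had exactly 1 such probe set, and all 43 passed the filter on dim signals, so no gene was kept or lost through its level in 1 group. Cyclin B1 (Ccnb1) was the remaining gene, and the platform annotation used here names no probe set for it.

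Expression was measured on 6 Affymetrix arrays of bone marrow cells sorted as Lineage- c-Kit+ Sca1+ (LSK), a fraction made up of blood stem cells and early multipotent progenitors. The knockout group was 3 samples from miR-21flox/flox:Mx1-Cre+ mice, and the control group was 3 samples from miR-21flox/flox:Mx1-Cre- littermates. Both groups carried the floxed alleles and both were given pIpC, 250 µg per injection for 7 injections, beginning at 4 to 6 weeks of age, with the harvest 4 weeks after that. An RNA mimic, pIpC provokes interferon, and interferon switches on the Mx1 promoter that drives Cre in blood cells and in other responsive tissues. Cre was carried by the knockout group alone, so an effect of Cre itself cannot be told apart from loss of miR-21. The sources used here do not say whether a sample was 1 mouse or a pool, so the p-values reflect the spread between arrays and no more. The microRNA shares its probe set with the overlapping gene Vmp1, so the arrays do not check the deletion.

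The deleted microRNA has the following mature sequence (mmu-miR-21a-5p, RefSeq, GRCm38.p6, chr11:86584120-86584141, minus strand), printed with its seed, bases 2 to 8, in capitals because the seed decides which transcripts a microRNA can repress.
miR-21a-5p: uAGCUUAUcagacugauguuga

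Division of a cell is driven by Cdk1 bound to cyclin A or cyclin B. Aurora kinases, Bub1, Bub1b and Ttk then watch over the attachment of chromosomes to the spindle, and kinesin motors build the spindle and move chromosomes along it. The kinetochore is the protein plate on the centromere to which spindle microtubules bind. Once all chromosomes are attached, Cdc20 switches on the anaphase-promoting complex (APC/C), separase (Espl1) is set free from securin (Pttg1), and the central spindle and contractile ring cut the cell apart. Most of these transcripts peak between S phase and mitosis, and blood stem cells at rest hold little of them. Many of their promoters hold a short element called the cell cycle homology region (CHR), often next to CCAAT boxes, through which the DREAM and B-Myb complexes are known to act.

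Promoter sequences from RefSeq (GRCm38.p6, 250 bases before to 50 after each start) were at hand for 36 of the 44 genes, in 38 windows. The letters TTTGAA or TTCGAA of the CHR, read on both strands, were found in 30 of the 38 windows (78.9%), against 19.2% of all 32851 windows of the same length and 17.6% of the windows of protein-coding genes. A CCAAT box, also read on both strands, was found in 78.9% of the windows against 37.4% of all windows. At least 2 CCAAT boxes stood in 55.3% against 11.7%, and both kinds of motif in 68.4% against 7.5%. In 29 of the windows, 76.3%, a CHR began no more than 100 bases before the start or lay after it, against 8.6% of all windows. These are matches of letters, which can overlap one another, and no binding was measured.

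The 120 bases before the annotated start are printed below for Cdc20, Cdk1, Kif22, Prc1 and Top2a. In each of their role groups, these had the largest change among the genes that rose and held a CHR in this stretch. CHR and CCAAT matches on either strand are in capitals, so that TTCAAA and ATTGG are matches on the other strand. The stretches are chr4:118437344-118437463 (minus strand) for Cdc20, chr10:69352913-69353032 (minus strand) for Cdk1, chr7:127042421-127042540 (minus strand) for Kif22, chr7:80294356-80294475 (plus strand) for Prc1 and chr11:99024190-99024309 (minus strand) for Top2a.
Cdc20: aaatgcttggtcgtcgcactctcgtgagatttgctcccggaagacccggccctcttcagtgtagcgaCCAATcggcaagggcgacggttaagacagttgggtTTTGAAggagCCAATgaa
Cdk1: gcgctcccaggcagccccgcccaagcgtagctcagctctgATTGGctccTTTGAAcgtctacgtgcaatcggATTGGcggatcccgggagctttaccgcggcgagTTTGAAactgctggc
Kif22: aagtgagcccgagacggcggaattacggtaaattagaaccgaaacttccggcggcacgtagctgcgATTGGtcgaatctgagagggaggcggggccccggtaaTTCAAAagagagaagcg
Prc1: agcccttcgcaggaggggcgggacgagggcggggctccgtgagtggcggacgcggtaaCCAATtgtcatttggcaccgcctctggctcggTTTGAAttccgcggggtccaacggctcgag
Top2a: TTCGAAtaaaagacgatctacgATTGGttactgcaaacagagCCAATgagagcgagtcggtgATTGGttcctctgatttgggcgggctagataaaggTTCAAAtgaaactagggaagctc
The CHR of Cdc20 began 18 bases before the start and that of Kif22 17 bases before it. In Cdk1 the nearer of 2 matches began 15 bases before the start, in Prc1 the match lay at 30 bases, and in Top2a the nearer lay at 23 bases. In each of these 5 stretches a CCAAT box lay further upstream of that CHR. Prc1 has another annotated start, and the 120 bases before it (chr7:80294331-80294450) hold no whole CHR, while its full window holds 1.

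For comparison, the same stretch is printed for Cenpa, chr5:30666766-30666885 (plus strand), and Cenpe, chr3:135212443-135212562 (plus strand). They had the lowest changes of the kinetochore genes with a window, and neither passed the test.
Cenpa: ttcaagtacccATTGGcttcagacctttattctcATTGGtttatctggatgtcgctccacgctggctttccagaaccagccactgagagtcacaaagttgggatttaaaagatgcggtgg
Cenpe: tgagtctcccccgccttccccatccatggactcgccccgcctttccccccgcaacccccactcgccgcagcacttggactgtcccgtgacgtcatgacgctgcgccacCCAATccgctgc
Both stretches hold CCAAT boxes and neither TTTGAA nor TTCGAA on either strand, although the full window of Cenpa holds a match outside this stretch. Other spellings of the CHR were not searched for. The 5 genes above were picked for a CHR in the 120 bases, so the contrast with them follows from the choice. Of the windows of genes that rose, 11 of 30 held a CHR there, and of the genes that did not pass, 0 of 7. Aurka, with the largest change of all, was among those that rose and held none there. The share over all windows was not counted for this stretch. In the 100 bases before the start, 30.0% of the windows of genes that rose held a CHR. The share was 0.0% for the genes that did not pass and 6.13% over all windows. A link between the element and the rise was not tested. Among the windows of the genes that did not pass the test, 5 of 7 held a CHR somewhere, and among those of the genes that rose 25 of 30 did.

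Most of the mitotic genes were higher in the knockout samples. Of the 43 genes measured, 35 were higher, 0 were lower and 8 did not pass the threshold (limma, Benjamini-Hochberg adjusted p under 0.05 over all 19084 genes tested). At the same threshold 31.1% of all genes tested were called, 19.1% higher and 12.0% lower, and 0 of the 43 genes were lower at an unadjusted p under 0.05 either, where 15.5% of all genes were. The median change, knockout minus control on the log2 scale, was 0.40, against 0.07 over all genes tested. Changes ran from -0.07 for Cenpa to 0.88 for Aurka. Past the threshold and with a fold of at least 1.5 as well, 10 of the 43 genes were higher. Of all genes tested, 1.76% were higher and 2.35% lower by that rule. The members were chosen with earlier results on these data known, so the count is not independent evidence of a direction. These were bulk samples, in which more dividing cells and more RNA per cell cannot be told apart.

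The knockout and control values did not overlap, with the knockout higher, for 35 of the 43 genes, against 30.9% of all genes tested. This set differs from the genes called, since Kif20b and Kif4 were called with overlapping values, while Bub1 and Incenp were separated by 0.03 and under 0.01 and were not called. Cenpa had values that did not overlap with the knockout lower, as 17.1% of all genes tested did. Within each group the genes tended to move together across arrays. Of the knockout arrays, replicate 2 had the lowest value for 30 of the 43 genes, where over all genes tested this array was the lowest for 39.4%. Among the controls, replicate 2 was the lowest for 26 genes and replicate 1 the highest for 29, against 38.9% and 40.1% of all genes tested. The median distance of the 43 genes from the midpoint of the 2 group means was 0.27, 0.12 and 0.25 on knockout replicates 1 to 3. On control replicates 1 to 3 it was -0.17, -0.27 and -0.21. The array of the knockout group with the weakest mitotic signal thus still lay above each control array in this median.

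**Figure D1:**
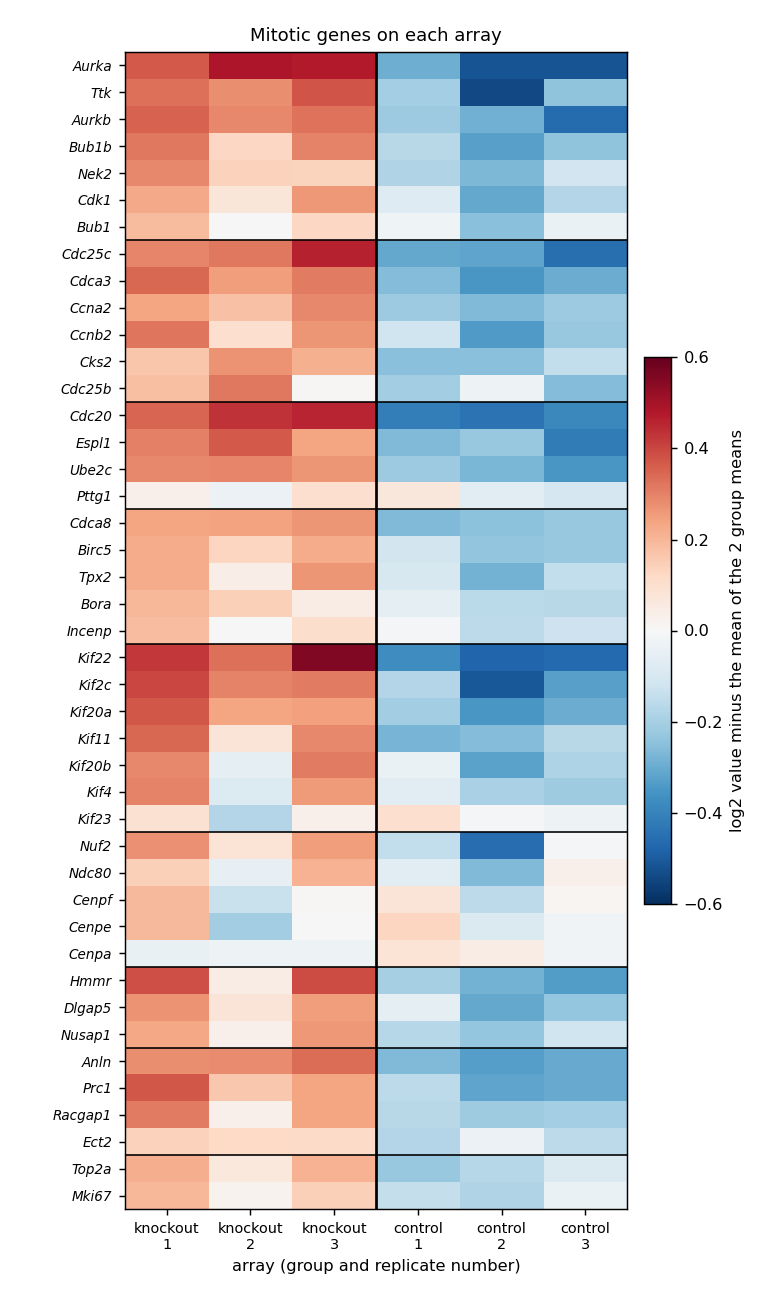
Colour map of the log2 value of each mitotic gene on each of the 6 arrays, after subtraction of the midpoint of the 2 group means, with genes in the role groups of the text divided by horizontal lines. The 3 knockout columns lie above the midpoint for most genes, and the lowest of them is replicate 2 for 30 of 43 genes.

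The master kinase of mitosis, Cdk1, had log2 values of 6.62, 6.46 and 6.65 on the knockout arrays and 6.31, 6.08 and 6.22 on the control arrays. Every knockout value lay above every control value, and Cdk1 rose by 0.37 ± 0.08 (SE, 1.29-fold, limma adjusted p = 0.00775). Among all 43 genes the change was highest for Aurka, the kinase of centrosome maturation and spindle poles. Its values were 6.13, 6.25 and 6.24 in the knockout and 5.48, 5.25 and 5.25 in control, a rise of 0.88 ± 0.08 (SE, 1.85-fold, limma adjusted p = 6.58e-05). The lowest knockout value of Aurka was 0.66 above the highest control value. Aurkb, the kinase of the inner centromere and midzone, stood at 6.90, 6.83 and 6.86 against 6.32, 6.25 and 6.08 and rose by 0.64 ± 0.07 (SE, limma adjusted p = 0.000301). Both of these Aurora kinases therefore rose, Aurka with the larger estimate, and the difference between them was not tested. Aurkc, a further Aurora kinase named after its value was seen, did not pass (0.03, limma adjusted p = 0.773). Its mean level was low, 2.35 in the knockout and 2.32 in control.

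The checkpoint kinase Ttk (Mps1) had values of 5.25, 5.20 and 5.30 in the knockout and 4.72, 4.38 and 4.68 in control. It rose by 0.66 ± 0.09 (SE, limma adjusted p = 0.000957), and its groups were 0.48 apart at the nearest values. The checkpoint protein BubR1 (Bub1b) rose by 0.49 and Nek2, a kinase that separates centrosomes, by 0.37. Bub1, the partner of Bub1b at the kinetochore, was the only one of the 7 kinases of this role group that did not pass. Its values were 5.13, 4.94 and 5.07 against 4.92, 4.69 and 4.90, a difference of 0.21 ± 0.08 (SE) with a limma adjusted p of 0.0745. It passed once the arrays were quantile normalized again (0.25, limma adjusted p = 0.0335) and with array weights (0.25, limma adjusted p = 0.0294). With the replicate number as a block Bub1 passed too (0.21, limma adjusted p = 0.01985). In all, 6 of the 7 kinases of this group rose, with a median change of 0.49.

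All 6 measured cyclins and regulators of Cdk1 rose, with a median change of 0.46. The phosphatase Cdc25c, which removes the inhibitory phosphates from Cdk1, had the largest change of them. It stood at 4.08, 4.10 and 4.25 in the knockout and 3.48, 3.47 and 3.34 in control, a rise of 0.72 ± 0.07 (SE, 1.64-fold, limma adjusted p = 0.000137). Cdc25b, a phosphatase that starts Cdk1 activation at the centrosome, had the smallest, with 4.31, 4.44 and 4.13 against 3.92, 4.09 and 3.87 and a rise of 0.34 ± 0.09 (SE, limma adjusted p = 0.0231). The groups of Cdc25b were only 0.04 apart, and leaving out control replicate 1 or 3, or replicate 1 or 2 of the knockout, ended its call, with changes of 0.26 to 0.33. Cyclin A2 (Ccna2) rose by 0.47 and cyclin B2 (Ccnb2) by 0.46. Cdca3, which promotes removal of the Cdk1 inhibitor kinase Wee1, rose by 0.60, and Cks2, a small subunit of Cdk complexes, by 0.43. The values of Ccna2 were tight, 6.68 to 6.80 in the knockout and 6.25 to 6.29 in control.

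Genes of the switch into anaphase were divided. Cdc20, the activator of the APC/C, had values of 7.54, 7.63 and 7.65 in the knockout and 6.78, 6.75 and 6.80 in control. It rose by 0.83 ± 0.06 (SE, 1.78-fold, limma adjusted p = 1.86e-05), the lowest adjusted p of the 43 genes. The groups of Cdc20 were 0.74 apart, many times the SD of 0.06 in the knockout and 0.03 in control (n = 3 each). Separase (Espl1), the protease that opens cohesin rings, rose by 0.61, and Ube2c, the ubiquitin-conjugating enzyme of the APC/C, by 0.56. Securin (Pttg1), the inhibitor of separase, stood at 4.37, 4.30 and 4.44 in the knockout and 4.41, 4.27 and 4.24 in control. These groups overlapped, and the difference was 0.06 ± 0.07 (SE) with a limma adjusted p of 0.507. It did not pass in any of the 14 alternatives, which gave 0.03 to 0.11.

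Of the 5 partners that activate or place mitotic kinases, 4 rose, with a median change of 0.35. Borealin (Cdca8), survivin (Birc5) and Incenp form with Aurkb the chromosomal passenger complex. Cdca8 had the tightest values of the group, 5.97, 5.97 and 5.99 against 5.46, 5.48 and 5.50, and rose by 0.49 ± 0.05 (SE, limma adjusted p = 0.000248). Birc5 rose by 0.39. Incenp, the scaffold of the complex, had values of 6.68, 6.49 and 6.59 against 6.48, 6.33 and 6.37, a difference of 0.19 ± 0.07 (SE) that did not pass (limma adjusted p = 0.0703). It passed without knockout replicate 2 (0.24, limma adjusted p = 0.0432), with array weights (0.24, limma adjusted p = 0.0245) and once the arrays were quantile normalized again (0.21, limma adjusted p = 0.0336). With the replicate number as a block Incenp passed too (0.19, limma adjusted p = 0.0276). Tpx2, the activator of Aurka on spindle microtubules, rose by 0.35, and Bora, its cofactor toward Plk1, by 0.26. The call on Bora was lost without knockout replicate 1 or control replicate 2 or 3, with changes of 0.22 to 0.24.

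Kinesins rose in 6 of 7 cases, with a median change of 0.47. Kif22 (Kid), which pushes chromosome arms outward, had values of 6.87, 6.78 and 7.01 in the knockout and 6.08, 5.97 and 5.98 in control. It rose by 0.88 ± 0.07 (SE, 1.83-fold, limma adjusted p = 4.54e-05), with 0.71 between the nearest values of the groups. The microtubule depolymerase Kif2c (MCAK) rose by 0.67, the motor of the midzone Kif20a by 0.57 and Kif11 (Eg5), which drives spindle poles apart, by 0.47. Kif20b and the chromosome-bound Kif4 were less certain. Kif20b stood at 5.40, 5.05 and 5.42 against 5.07, 4.79 and 4.92, and Kif4 at 5.52, 5.14 and 5.48 against 5.16, 5.03 and 5.01. In both, knockout replicate 2 fell into the range of the controls. Their changes were 0.36 ± 0.11 and 0.32 ± 0.10 (SE), with limma adjusted p-values of 0.0331 and 0.0404. Both calls were lost with no filter on dim genes, with arrays centred on their medians, and when control replicate 2 or 3 or replicate 1 or 3 of the knockout was left out. The changes in those fits were 0.29 to 0.36 for Kif20b and 0.25 to 0.32 for Kif4.

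Kif23 (MKLP1), the kinesin of the centralspindlin complex, did not pass. Its values were 6.43, 6.17 and 6.37 in the knockout and 6.44, 6.33 and 6.31 in control, a difference of -0.04 ± 0.08 (SE, limma adjusted p = 0.742). The groups overlapped, and the lowest value of all was that of knockout replicate 2. Racgap1, which forms centralspindlin together with Kif23, stood at 5.88, 5.60 and 5.80 against 5.40, 5.35 and 5.36 and rose by 0.39 ± 0.08 (SE, limma adjusted p = 0.00585). The 2 partners of this complex were therefore called differently, and the difference between their changes was not tested.

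The genes of cytokinesis rose, 4 of 4, with a median change of 0.45. Anillin (Anln), the scaffold of the contractile ring, had values of 5.05, 5.06 and 5.11 in the knockout and 4.51, 4.44 and 4.48 in control. Its rise was 0.60 ± 0.06 (SE, 1.51-fold, limma adjusted p = 0.0001) and the nearest values were 0.54 apart. Prc1, which bundles the microtubules of the midzone, rose by 0.52. Ect2, the exchange factor that activates RhoA at the cell equator, had the smallest change of them, 0.25 ± 0.06 (SE, limma adjusted p = 0.0147). Its knockout values of 5.79, 5.77 and 5.76 lay above the control values of 5.47, 5.61 and 5.49, and the call was lost without knockout replicate 1 (0.24, adjusted p = 0.0515 in limma).

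All 3 genes of spindle microtubules rose, with a median change of 0.40. Hmmr, which holds spindle poles together, had the largest change, 0.55 ± 0.10 (SE, limma adjusted p = 0.00324). Its values were 5.28, 4.94 and 5.28 against 4.69, 4.61 and 4.56, so that knockout replicate 2 lay well under the other knockout arrays and still above the controls. Dlgap5 (HURP), which stabilises the fibres that reach the kinetochores, rose by 0.40. The microtubule bundler Nusap1 had the smallest change of them, 0.35, with values of 6.34, 6.14 and 6.37 against 5.94, 5.88 and 5.99. Both genes of the mitotic chromosome rose as well. Topoisomerase II alpha (Top2a), which untangles sister chromatids, stood at 7.21, 7.06 and 7.20 against 6.77, 6.82 and 6.91 and rose by 0.32 ± 0.07 (SE, limma adjusted p = 0.00743). Its groups did not overlap. The proliferation marker Mki67, which coats mitotic chromosomes, stood at 8.82, 8.64 and 8.77 against 8.48, 8.44 and 8.58, a rise of 0.24 ± 0.07 (SE, limma adjusted p = 0.0269). Quantile normalizing the arrays again ended its call (0.14, limma adjusted p = 0.144), as did leaving out control replicate 1 or 2, or replicate 1 or 3 of the knockout (0.20 to 0.23).

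**Figure D2:**
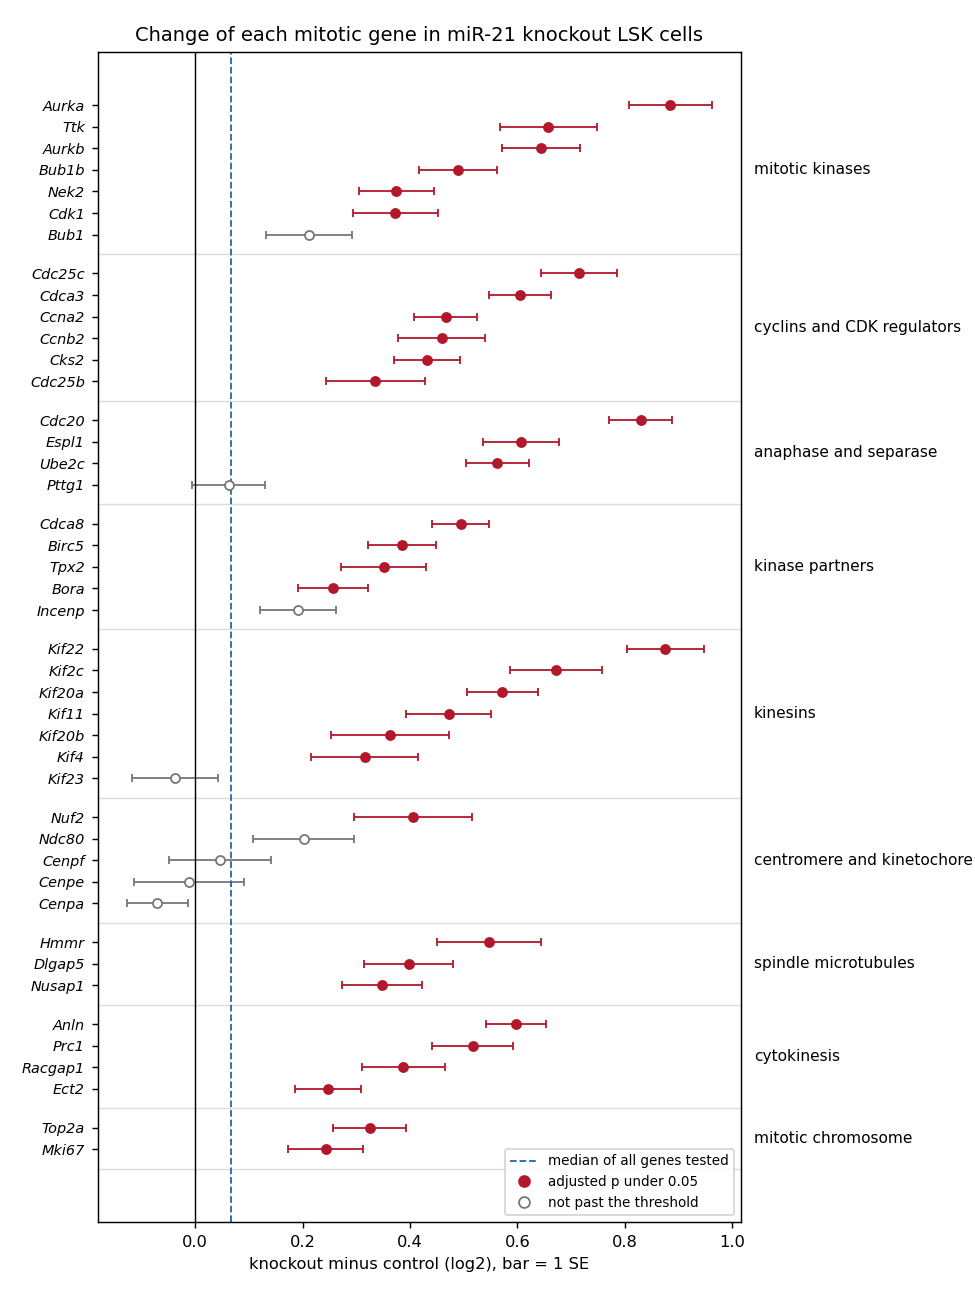
Change of each of the 43 measured mitotic genes, knockout minus control on the log2 scale, with 1 SE from limma, grouped by role. Filled points passed an adjusted p of 0.05 and the dashed line marks the median of all genes tested, 0.07. Most groups lie to the right of that line, and Cenpa, Cenpe, Cenpf, Kif23 and Pttg1 lie at or near 0.

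Differences between role groups were not tested. The centromere and kinetochore genes had the lowest count, with 1 of 5 higher and a median change of 0.05. Without this group the count was 34 of 38 and the median 0.45. Cenpa, the histone variant that marks the centromere, had values of 6.14, 6.15 and 6.15 in the knockout and 6.27, 6.23 and 6.16 in control. Its difference was -0.07 ± 0.06 (SE, limma adjusted p = 0.367), with the knockout values just under the controls. The kinetochore motor Cenpe had values of 4.39, 3.99 and 4.20 against 4.33, 4.11 and 4.18, a difference of -0.01 ± 0.10 (SE, limma adjusted p = 0.944). Cenpf, a large protein of the outer kinetochore, had 4.60, 4.27 and 4.41 against 4.48, 4.25 and 4.42, a difference of 0.05 ± 0.09 (SE, limma adjusted p = 0.728). The groups of Cenpe and Cenpf overlapped, and the 3 genes did not pass in any of the 14 alternatives.

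Ndc80 and Nuf2 encode the dimer that grips the microtubule. Nuf2 stood at 4.57, 4.38 and 4.55 against 4.15, 3.84 and 4.29 and rose by 0.41 ± 0.11 (SE, limma adjusted p = 0.022). Ndc80 stood at 5.45, 5.25 and 5.51 against 5.24, 5.03 and 5.33, and its difference of 0.20 ± 0.09 (SE) did not pass (limma adjusted p = 0.132). In Ndc80 the groups overlapped, since knockout replicate 2 lay under control replicate 3. Ndc80 passed in 1 alternative, with the replicate number as a block (0.20, limma adjusted p = 0.0214). The call on Nuf2 was lost without knockout replicate 1 (0.37) or 3 (0.38), so the count in the kinetochore group was 0 or 1 with an array left out.

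Other genes of the centromere and kinetochore, listed by role, gave another picture. Of 39 tested, 33 were higher and 1 was lower, with a median change of 0.40, against 19.1% higher and 12.0% lower of all genes tested. The shugoshin Sgo1, which guards centromeric cohesion, rose by 0.85 ± 0.07 (SE, limma adjusted p = 4.54e-05) and Oip5, a subunit of the complex that loads CENP-A, by 0.79. Zwilch, of the complex that brings dynein to kinetochores, rose by 0.23, a call lost without any 1 control array, without replicate 1 or 3 of the knockout, with no dim filter and with median-centred arrays (0.15 to 0.26). Zwint, which links that complex to Knl1, fell by 0.38 ± 0.07 (SE, limma adjusted p = 0.00441). The checkpoint genes Bub3 and Mad2l1 rose by 0.27 each. Both of those calls were lost without control replicate 2 or replicate 3 of the knockout, that of Bub3 also without control replicate 3 and that of Mad2l1 also without knockout replicate 1 (0.20 to 0.26).

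Sorted by complex, a grouping made after these values were seen, the rises were spread over the kinetochore. In the constitutive centromere network, which sits on CENP-A chromatin through the cell cycle, 13 of 15 genes rose with a median of 0.41. Of these calls, those on Cenph, Cenpk and Cenpt were lost in 6, 5 and 2 of 14 alternatives, and the groups of Cenph overlapped. In the Ndc80 complex 3 of 4 rose, with Spc24 at 0.57 and Spc25 at 0.32 beside Nuf2. In the Mis12 complex with Knl1 and Zwint, which ties the inner to the outer kinetochore, 4 of 6 rose and 1 fell, with Mis12 at 0.74, Nsl1 at 0.62 and Knl1 at 0.56. All 3 genes of the Ska complex, which couples kinetochores to moving microtubule ends, and both shugoshins rose. Of the spindle checkpoint genes 4 of 6 rose and of the RZZ complex with Spindly, which brings dynein to the kinetochore, 3 of 4. Of the CENP-A loading factors, Oip5 and Mis18a (0.29) both rose while Cenpa was at -0.07. Each of these complexes had at least 1 gene that rose, which says little by itself, since 19.1% of all genes tested were higher and 12.0% lower. The complexes take in Ndc80, Nuf2, Bub1, Bub1b and Ttk, which are among the mitotic genes described above. Of the genes placed in none of the complexes, Knstrn (0.50) and Mad2l1bp (0.38) rose, and Cenpa, Cenpe and Cenpf did not pass.

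**Figure D3:**
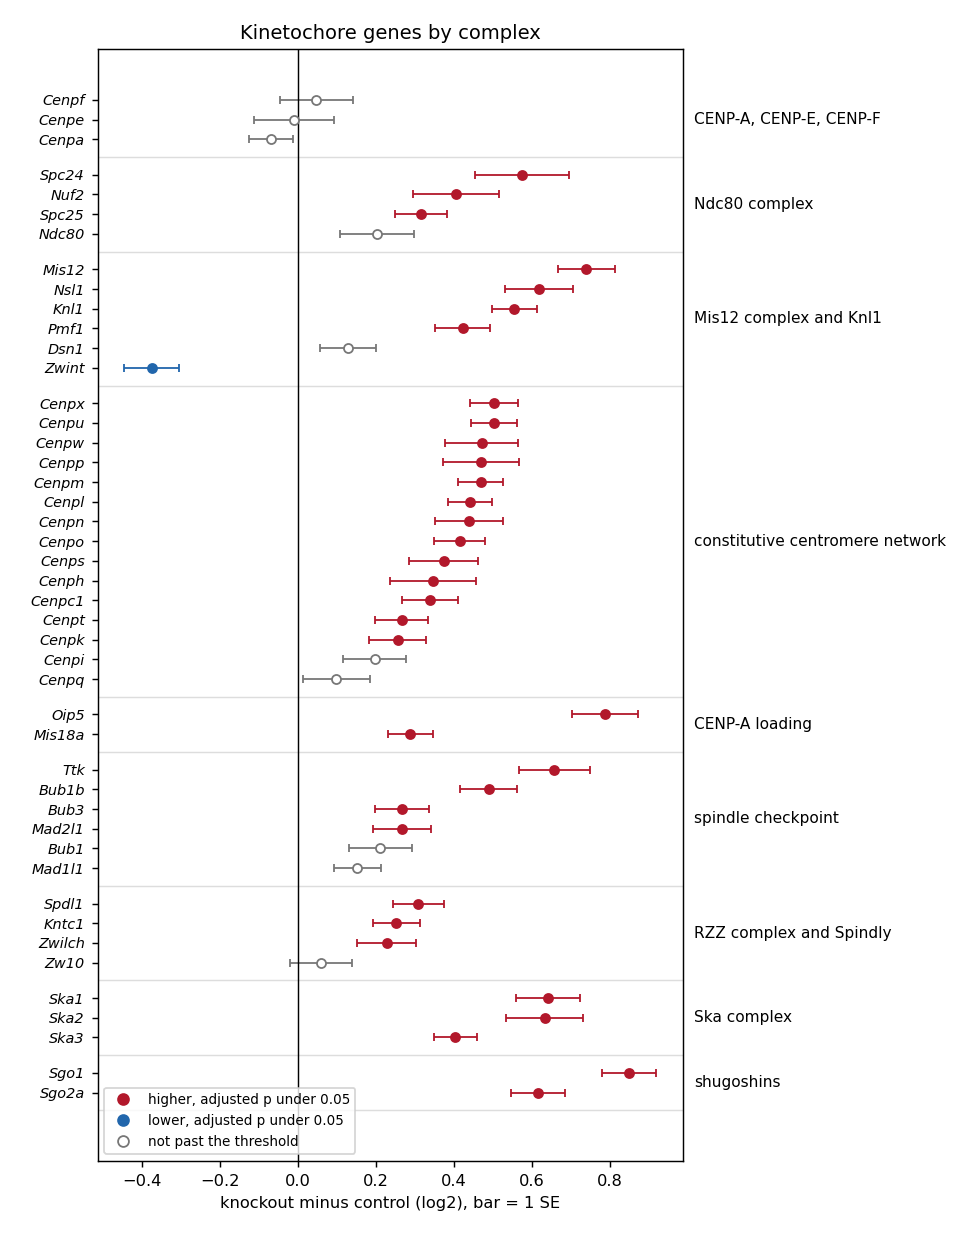
Change of kinetochore genes by complex, knockout minus control on the log2 scale with 1 SE from limma, red where higher and blue where lower at an adjusted p of 0.05. The 3 genes at the top, Cenpf, Cenpe and Cenpa, lie at 0.05, -0.01 and -0.07, and 13 of 15 genes of the constitutive centromere network are higher.

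The other genes of division, 165 of 180 listed with a value, were higher in 81 cases (49.1%) and lower in 13 (7.9%). Their median change was 0.21, and of all genes tested 19.1% were higher and 12.0% lower. Among 13 further mitotic kinases 6 rose (46.2%), 3 fell (23.1%) and the median was 0.28. Plk1, the polo-like kinase of mitotic entry, rose by 0.81 ± 0.07 (SE, limma adjusted p = 5.28e-05) and the histone H3 kinase Haspin by 0.67. Nek6, a kinase upstream of spindle formation, fell by 0.65, and Stk10, a kinase that can phosphorylate Plk1, fell by 0.50. The other that fell, Nek7 (by 0.32, named after its value was seen), lost its call in 9 of 14 alternatives (-0.37 to -0.21). Of 7 further kinesins 5 rose (71.4%), with a median of 0.30. The microtubule-end kinesin Kif18b rose by 0.56 and the minus-end motor Kifc1 by 0.35, while Kif14, named after its value was seen, rose by 0.32, Kif15 by 0.30 and Kif18a by 0.21. The calls on Kif15 and Kif18a were lost without control replicate 2 or replicate 1 or 3 of the knockout, and that on Kif18a also without control replicate 3, with no dim filter and with median-centred arrays (0.19 to 0.27). Cks1b (0.38) and Cdc25a (0.24) rose out of 3 further cyclin and Cdk regulators, but leaving out control replicate 2 or 3, or replicate 1 or 3 of the knockout, ended the call on Cdc25a (0.18 to 0.25).

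Lists of general machinery lay nearer the background. Of 17 APC/C subunits and regulators, 4 rose (23.5%) with a median of 0.13, and 0 fell, also at an unadjusted p under 0.05. Fzr1 (Cdh1), the APC/C activator of late mitosis and G1 phase, rose by 0.34. Anapc16 (0.34), Ube2s (0.29) and Anapc13 (0.19) rose as well, and these 3 lost their call when knockout replicate 1 or control replicate 2 was left out. Ube2s and Anapc13 lost it also without replicate 3 of either group. Anapc13 lost it besides without control replicate 1, with median-centred arrays and once arrays were quantile normalized again (0.08 to 0.29 in all such fits). Of 17 further cytokinesis genes 3 rose (17.6%) and 2 fell (11.8%), with a median of -0.05. Sapcd2 rose by 0.36, the abscission protein Cep55 by 0.35 and citron kinase (Cit), named after its value was seen, by 0.22. Cit lost its call in 7 of 14 alternatives, 5 of them fits without 1 array (0.16 to 0.25). The call on Cep55 was lost without control replicate 2 or 3 or replicate 1 or 3 of the knockout (0.28 to 0.35). Rock1, a kinase of myosin contraction, fell by 0.95 ± 0.10 (SE, limma adjusted p = 0.000185). Pdcd6ip (ALIX) fell by 0.17, a call lost without any 1 array and with no dim filter.

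Among 36 other spindle and centrosome genes, 19 rose (52.8%) and 4 fell, with a median of 0.23. Troap, a spindle protein, rose by 0.71 and Gtse1, which stabilises spindle microtubules, by 0.59, while Haus2, an augmin subunit, fell by 0.35 and the plus-end protein Mapre1 (EB1) fell by 0.26. The other 2 that fell, named after their values were seen, were Numa1 (-0.20) and Clasp1 (-0.19). Numa1 lost its call in 8 of 14 alternatives (-0.23 to -0.16) and Clasp1 in 7 (-0.20 to -0.15), each in 5 of the fits without 1 array. Calls were also lost among the genes of this list that rose, named after their values were seen. Rcc1 lost its call in 7 of 14 alternatives, Haus6 in 6 and Kpnb1 in 4. Ran and Depdc1a lost it in 3 each, and Aspm and Sass6 in 1 each. The 4 that fell are 11.1% of the list, near the 12.0% of all genes tested. Of 18 condensin and cohesin genes, 6 rose (33.3%) and 2 fell (11.1%), with a median of -0.01, against 19.1% and 12.0% of all genes tested. The condensin subunit Ncapg rose by 0.63 and Cdca5 (sororin) by 0.48. The cohesin core gene Smc1a fell by 0.31 and the cohesin release factor Wapl by 0.25. Both lost their call with array weights and without control replicate 1 or 3 or replicate 2 or 3 of the knockout, Wapl also without control replicate 2 and Smc1a also with no dim filter (-0.33 to -0.19). Of those that rose, Esco2 and Ncaph2, named after their values were seen, lost their calls in 3 and 2 of 14 alternatives. Each of these was a fit without 1 array. Of 15 genes that control transcription of the mitotic program, 3 rose, a share near the 19.1% of all genes tested, and 1 fell (6.7%), with a median of 0.09. B-Myb (Mybl2) rose by 0.42 ± 0.06 (SE, limma adjusted p = 0.00075), E2f8 by 0.44 and Lin37 by 0.34, and Lin54, the subunit that reads the CHR, fell by 0.33. Foxm1 shares its probe set with another gene and has no value of its own here.

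**Figure D4:**
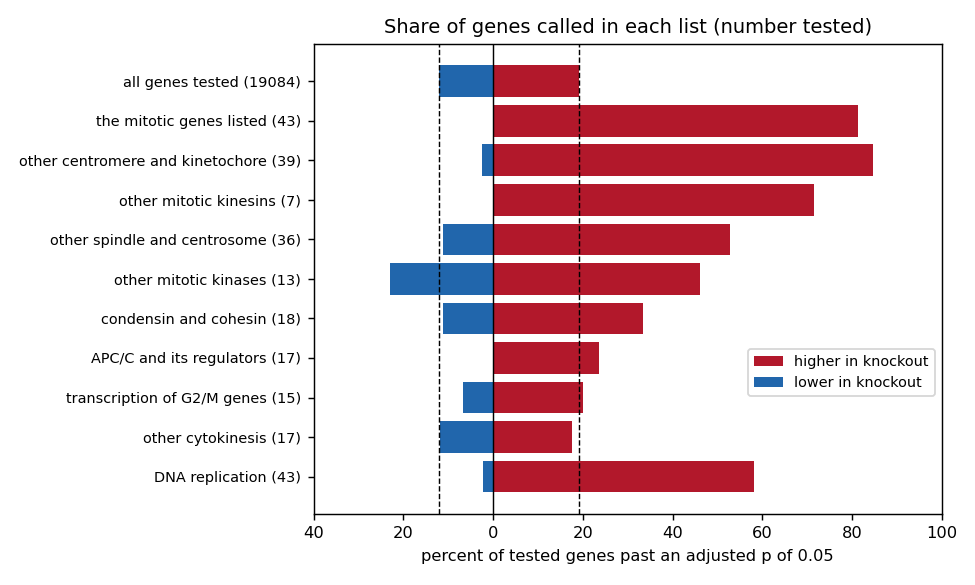
Percentage of tested genes that were higher (right) or lower (left) in the knockout at an adjusted p of 0.05, for the mitotic genes, for lists of other division genes and for all genes tested, with the number tested in brackets. Dashed lines mark all genes tested, 19.1% higher and 12.0% lower. The mitotic genes (81.4%) and the other kinetochore genes (84.6%) have the longest bars to the right, and the cytokinesis list (17.6%) and APC/C list (23.5%) lie near the line.

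Across the series, arrays of a group correlated at 0.995 to 0.997 over all probe sets and arrays of different groups at 0.987 to 0.991, and 3648 genes were higher and 2295 lower in the knockout. Of the markers of the sorted cells, Kit, Cd34 and Flt3 had signal on all arrays, and the annotation used here gives Ly6a (Sca-1) no probe set of its own. Of 8 LSK and stem cell markers, 7 were lower and 1, Slamf1, was higher (0.54, named after its value was seen), and their summed linear level was 1158 to 1169 in the knockout and 1475 to 1495 in control. Kit was at -0.46, Flt3 at -0.47 and Cd34 at -0.16, the last with a limma adjusted p of 0.0498 that was lost without any 1 array.

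Markers of several other cell types were higher in the knockout as well, while those of B cells and dendritic cells mostly did not pass. Over all genes tested, 19.1% were higher and 12.0% lower. All 10 markers of granulocyte-monocyte progenitors were higher, with a summed level of 2867 to 2924 against 1109 to 1189, and so were all 10 neutrophil markers, 468 to 535 against 183 to 219. The granule genes Elane and Mpo rose by 2.06 and 0.97. Of mast cell and basophil markers 4 of 6 were higher and 1 lower, with a summed level of 226 to 260 against 140 to 146, and Ms4a2 was dim. Of erythroblast markers 3 of 5 were higher (85.7 to 92.5 against 66.7 to 69.0) with Alas2 dim, and of megakaryocyte markers 3 of 5 (193 to 196 against 145 to 151) with Gp6 dim. Of T and NK cell markers 2 of 5 were higher (386 to 427 against 284 to 300), and Cd3d, Cd3g and Ncr1 were dim. From 90.5% to 93.3% of that sum was the granule gene Nkg7, and without it the sum was 28.4 to 30.5 against 26.1 to 27.1. Of monocyte and macrophage markers 3 of 6 were higher (223 to 244 against 201 to 228) with Adgre1 dim. Of B cell markers 1 of 6 was higher and 1 lower, 16.7% each (107 to 109 against 99.9 to 103), with Ms4a1 dim. Among 4 dendritic cell markers 0 passed (320 to 377 against 246 to 347), with Xcr1 and Clec9a dim and 85.0% to 90.2% of the sum from Bst2. The part of these shifts in the rise of the mitotic genes was not tested.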

How the data were processed

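The authors deposited 1 table of log2 values, a column per array, for 65956 probe sets. The submitters' processing notes name RMA, which quantile normalizes, so that a shift in nearly all transcripts would not show. Its version, the log base and a build are not given in the sources used here; the base was read as 2 from the range, up to 11.5. With arrays, their number limits precision.

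Probe sets were named through GEO's platform annotation and RefSeq (GRCm38.p6): 31207 had 1 gene, 1543 several and 33206 none. The brightest was used for the 364 symbols with more than 1. Genes averaging under the median of all probe sets (1.92) were left out as dim, which kept 19084. Groups and replicate numbers came from the labels. limma 3.58.1 (R 4.3.3; lmFit, eBayes, two-sided, Benjamini-Hochberg over genes kept) tested the groups, after the procedure was tested on simulated data.

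The members and lists were chosen with earlier results of these data known. All members are named. In each other division list the rule named the 2 largest and 2 smallest changes past the threshold, and always Plk1, Foxm1, Mybl2, Mad2l1, Bub3 and Fzr1; of context and marker lists Ccne1, Rrm2, Pcna, Mcm2, Cdkn1a, Cdkn1b, Cdkn1c, Kit, Cd34, Flt3, Mpo and Elane. Alternatives were no or a stricter dim filter, median centring, quantile normalization repeated, the mean of probe sets, array weights, eBayes with trend and robust, a replicate block, each array left out, and a fold of at least 1.5.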

Additional observations from a re-analysis of the deposited data

Results flagged for a closer look

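Signal outside the genes compared came from probe sets that the annotation assigns to several genes, 1 of them a gene of the division lists. These were fitted with all probe sets above the dim level, and 4 of 10 passed an adjusted p of 0.05 in limma, where 24.9% of all 32985 probe sets in that fit did. The probe set of Ccnf (cyclin F) and Mir5134 was higher in the knockout, at 6.68 against 5.88, a change of 0.79 (adjusted p = 0.00255 in limma). The probe set of Foxm1, a factor that drives mitotic genes, and 4933413G19Rik was at 5.98 against 5.68, a change of 0.30 (adjusted p = 0.0153 in limma). Haus5 with Rbm42 differed by 0.23, at 5.51 against 5.28 (adjusted p = 0.0307 in limma). Myh9 with Gm22107 was lower, at 6.75 against 6.98, a change of -0.22 (adjusted p = 0.0487 in limma). Which of the genes of such a probe set carries the difference cannot be told apart.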

How the results depend on the processing

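The number of mitotic genes higher in the knockout was 35, and 28 of these kept the call in each of the 14 alternatives other than the fold threshold. It was 33 with no filter on dim genes and with median-centred arrays, 36 after a second quantile normalization, 37 with array weights and 28 to 35 with 1 array left out. None of the 43 genes was lower in any alternative, and their median change ran from 0.37 to 0.47. With a fold of at least 1.5 as well, 10 mitotic genes, 3 kinases, 2 kinesins, 0 kinetochore genes and 1 cytokinesis gene remained higher, and 12 other division genes were higher and 2 lower; a second threshold can only lower these counts. With 1 array left out, the kinetochore count was 0 to 1, the other division genes lower were 7 to 10, and all genes higher were 2332 to 3104, where fewer samples were fitted. With no filter on dim genes the other division genes lower were 8, and the cause was not tested. Same-numbered arrays of the groups deviated together with correlations of 0.219, 0.333 and 0.0999, which is not over 0.1 in each pair, and the labels do not say that the numbers pair samples. With the replicate number as a block, 38 mitotic genes were higher, 2 of them in the kinetochore group (Ndc80 and Nuf2). The fold changes are on RMA values, and dim probe sets understate a change.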

Other observations

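DNA replication genes, which act before mitosis, were higher in 25 of 43 cases (58.1%) and lower in 1 (2.3%). Over all genes tested, 19.1% were higher and 12.0% lower. The median change of the list was 0.22, against 0.40 for the mitotic genes and 0.07 for all genes tested. The difference between the lists was not tested. Ribonucleotide reductase (Rrm2) rose by 0.41 and cyclin E1 (Ccne1) by 0.39, while the clamp Pcna was at 0.01 (limma adjusted p = 0.907) and the helicase subunit Mcm2 at 0.12 (limma adjusted p = 0.165). Gins3 rose by 0.67, the highest change of the list, and Orc1, of the origin recognition complex, fell by 0.47. Gins3 and Orc1 were named after their values were seen, as were the following genes, whose rises were not kept in every alternative. Pole lost its call in 6 of 14 alternatives, Mcm3, Mcm5 and Gins2 in 5 each, Chaf1a in 4, and Tyms and Fen1 in 3 each. The CHR letters were found in 16.7% of the promoter windows of the replication list, 39.5% of those of the other kinetochore genes, 33.9% of those of all other division genes, 78.9% for the mitotic genes and 19.2% of all windows.

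Of 7 CDK inhibitor genes, 1 fell and 1 rose (14.3% each), against 12.0% lower and 19.1% higher of all genes tested. The one that rose, Cdkn2d (0.17, named after its value was seen), lost its call in 8 of 14 alternatives, among them each fit without 1 array. The p21 gene Cdkn1a fell by 1.08 ± 0.06 (SE, limma adjusted p = 4.8e-06). The p27 gene Cdkn1b was at -0.16 (limma adjusted p = 0.129) and the p57 gene Cdkn1c at 0.14 (limma adjusted p = 0.179).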
